A study of Mus musculus with 4 samples.

Results

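The Hippo pathway was followed here through 10 genes, the coactivator genes Yap1 and Wwtr1 (which encodes TAZ), the transcription factor genes Tead1, Tead2, Tead3 and Tead4, the upstream genes Lats2, Nf2 and Amotl2, and the target gene Ankrd1. They were chosen as the pathway's effectors, regulators and targets, with earlier results of these data known. All 10 genes had a probe on the array, among 22911 gene symbols that could be named, and they were represented by 18 probes. Of these probes, 17 passed the filter on dim signal, that is, in ID8G or GO2 cells both arrays read well above background, and every gene kept at least 1 probe.

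RNA was compared between ID8G and GO2 cells on 4 arrays, 2 for each cell line. ID8G cells are ID8 mouse ovarian cancer cells that carry GFP through a retrovirus and were sorted for it. GO2 cells descend from ID8G cells that were injected into the peritoneal cavity of female C57BL/6J mice: the CD45- GFP+ cells of the omental tumors were sorted, cultured, injected again and sorted from omental tumors once more. Both lines were grown in culture before RNA was taken, so every array measures cultured cells and not tumor tissue. The paper names a medium for ID8 cells and none for GO2 cells. GO2 is 1 selected line, and the arrays hold no other selected line, although the paper describes others. Nothing in the sources says whether the 2 arrays of a line came from separate cultures. The p-values therefore measure only the spread between these arrays, which may be technical.

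The Hippo pathway is a kinase cascade that restrains growth. When it is active, the MST kinases activate LATS kinases, which phosphorylate YAP and TAZ and keep them in the cytoplasm, where they are degraded. When it is inactive, YAP and TAZ enter the nucleus and bind the TEAD factors, which carry them to DNA. NF2 (merlin) and the angiomotins act upstream at the membrane and at cell junctions, and Lats2, Amotl2 and Nf2 can themselves respond to YAP in a feedback loop. RNA arrays do not measure the phosphorylation or the location of YAP and TAZ.

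TEAD factors bind the 6-base element GGAATG, read as CATTCC on the other strand. This element was searched on both strands in the RefSeq promoter windows of the mouse genome build GRCm38.p6, each running from 250 bases before to 50 bases after an annotated transcription start. The bases before the start are shown 5′ to 3′ on the strand of the gene for 4 genes, with each match in capitals: Ankrd1, the member that fell in GO2 cells, Tead3, the member with the largest difference, and Ccn1 and Wtip, a target and an upstream regulator that rose and hold a match. The windows of Igfbp3, Nt5e, Rbms3 and Amot, which were also called higher, held none. For Amotl2, whose window lies inside the annotated gene, 30 bases around the match are shown.

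Ankrd1 (chr19:36119845-36120094, minus strand): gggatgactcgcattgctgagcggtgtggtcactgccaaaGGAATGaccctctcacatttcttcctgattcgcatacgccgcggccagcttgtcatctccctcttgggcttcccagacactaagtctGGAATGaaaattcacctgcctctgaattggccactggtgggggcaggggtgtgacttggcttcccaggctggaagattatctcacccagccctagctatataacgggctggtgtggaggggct

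Tead3 (chr17:28350806-28351055, minus strand): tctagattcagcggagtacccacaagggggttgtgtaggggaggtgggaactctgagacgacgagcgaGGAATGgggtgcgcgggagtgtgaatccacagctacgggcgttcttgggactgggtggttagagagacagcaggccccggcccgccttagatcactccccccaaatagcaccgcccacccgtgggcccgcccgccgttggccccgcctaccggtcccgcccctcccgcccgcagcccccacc

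Amotl2 (chr9:102717727-102717756, plus strand): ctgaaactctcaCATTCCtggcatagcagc

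Ccn1 (chr3:145649986-145650235, minus strand): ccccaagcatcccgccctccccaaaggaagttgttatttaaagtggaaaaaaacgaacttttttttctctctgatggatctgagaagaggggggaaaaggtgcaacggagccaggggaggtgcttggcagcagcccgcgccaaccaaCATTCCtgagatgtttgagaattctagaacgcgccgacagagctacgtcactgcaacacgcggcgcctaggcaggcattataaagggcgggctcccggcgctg

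Wtip (chr7:34133269-34133518, minus strand): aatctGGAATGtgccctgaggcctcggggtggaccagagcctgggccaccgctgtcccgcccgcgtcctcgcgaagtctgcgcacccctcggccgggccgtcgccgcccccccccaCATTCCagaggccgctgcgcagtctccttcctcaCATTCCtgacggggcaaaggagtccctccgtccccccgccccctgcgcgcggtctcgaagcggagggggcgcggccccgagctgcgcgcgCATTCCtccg

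The Ankrd1 window held 2 matches, which began 210 and 123 bases before the start. The Amotl2 match began 65 bases before the start, and the Ccn1 match 103 bases before it. Tead3 had 3 windows: the one shown held a match 182 bases before its start, another held 3 matches, at 123 and 114 bases before and 3 bases after its start, and the last held none. The Wtip window held 4 matches, at 245, 134, 100 and 10 bases before the start. Only 6 of 32851 windows (0.0183%) held 4 or more, but Wtip was shown because it rose and holds a match. Over the 8 members with a window in the table, 6 held at least 1 match: Yap1, Wwtr1, Tead3, Lats2, Ankrd1 and Amotl2. Tead2 and Nf2 held none, and Tead1 and Tead4 are not in the table. Among all windows 14.7% held a match, and among all genes 16.6% held one in at least 1 window. Of 53 further pathway genes with a window, from the lists described below, 14 (26.4%) held one. Genes with several windows have more chances of a match, and a match is a description of the letters and not a bound site. Among tested genes with a window, the element was present in 14.7% of the 580 called higher, 19.8% of the 388 called lower and 14.2% of the 9579 not called.

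**Figure D1:**
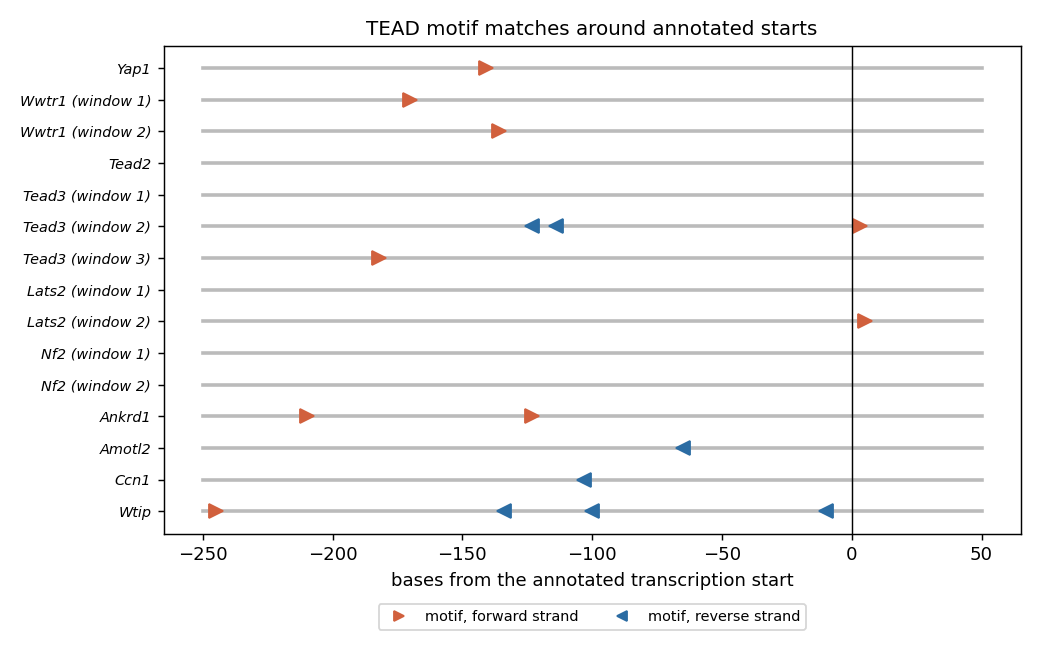
Position of each GGAATG match (right-pointing, forward strand; left-pointing, reverse strand) in bases from the annotated transcription start, for the members in the promoter table and for Ccn1 and Wtip; each grey line is 1 window from 250 bases before to 50 after a start. Ankrd1 holds 2 matches and Wtip 4, whereas Tead2 and Nf2 hold none.

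The array files listed 59305 spots that were not controls, for 56605 probes, and between 27502 and 28841 probes per array were well above background. Levels below are log2 signals relative to the 75th percentile of the same array, so 0 is the level of that percentile. A gene was called when the limma adjusted p was below 0.05 and the difference at least 2-fold, and was represented by its tested probe with the highest mean level. By this rule 5.98% of 13215 tested gene symbols were called higher in GO2 cells and 3.94% lower. At an adjusted p below 0.05 alone, 21.0% were higher and 20.0% lower. The median difference over gene symbols was -0.00041 and the median size of a difference was 0.207. With 2 arrays against 2, an exact permutation test of a single gene cannot give a p below 0.333, so the tests rest on the spread shared across all probes by limma. Scaling to the 7 spike-in controls in place of the 75th percentile moved the median of all probes from -0.023 to -0.227, and the share of calls that were higher from 57.4% to 43.7%. Levels of different probes are not compared, since probes differ in brightness, and the summed signals of marker lists given last weight each probe by its brightness.

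Of the 10 members, Tead3 and Tead2 were called higher in GO2 cells, none was called lower and 8 were not called. Over all tested gene symbols 5.98% were called higher and 3.94% lower. At an adjusted p below 0.05 alone, 5 rose (Tead1, Tead2, Tead3, Lats2 and Amotl2) and Ankrd1 fell. By that rule 21.0% of all tested gene symbols were higher and 20.0% lower. The unadjusted limma p gave the same member counts, 5 and 1. Over all 28368 tested probes, 6379 were higher and 7283 lower at an unadjusted limma p below 0.05. At the adjusted p, Tead1 and Lats2 no longer passed with the spike-ins or with no filter on dim probes. The median difference of the 10 genes was 0.28 on the log2 scale. In 8 of the 10 genes the arrays of the lines did not overlap, against 78.5% of all tested gene symbols, so that share is near the background. By size of difference among the 13215 gene symbols, Tead3 ranked 740, Tead2 1123, Ankrd1 1585 and Amotl2 1888, whereas Yap1 ranked 7161 and Wwtr1 9203.

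**Figure D2:**
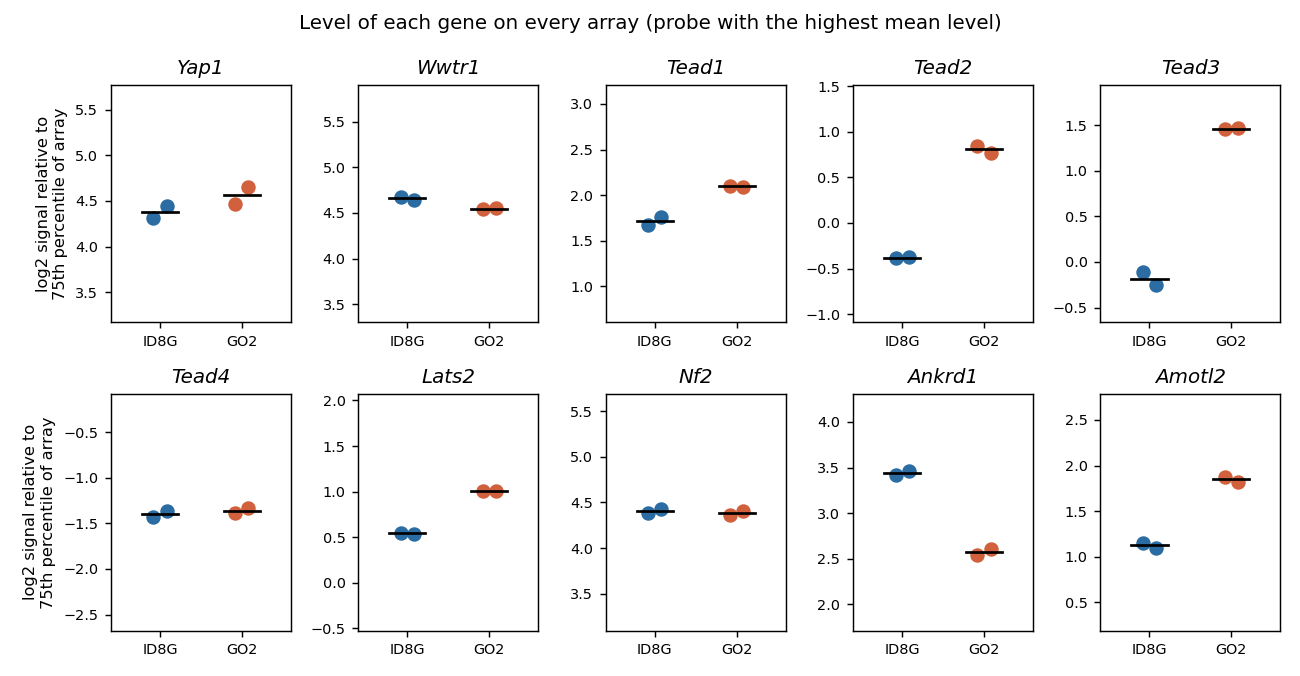
Level of each of the 10 genes on every array, as log2 signal relative to the 75th percentile of the array, with 1 point per array and a bar at the mean of each line; every panel spans the same range of log2 units. Tead2, Tead3, Amotl2, Lats2 and Tead1 lie higher in both GO2 arrays, Ankrd1 lies lower, and Tead4 and Nf2 overlap.

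The coactivator genes did not pass the test at the settings used here, although Wwtr1 did under other settings. Yap1, which encodes the main effector of the pathway, was bright in both lines, with levels of 4.31 and 4.45 in ID8G cells and 4.47 and 4.66 in GO2 cells. The lowest GO2 array lay just above the highest ID8G array, and the gap between the GO2 arrays was close to the difference of the means. The difference was 0.18 (SE 0.10, 95% interval -0.08 to 0.45, limma adjusted p = 0.202), and with the spike-ins it was -0.02. Wwtr1, the gene of TAZ, had levels of 4.68 and 4.64 in ID8G cells and 4.54 and 4.55 in GO2 cells. Its difference was -0.11 (SE 0.05, 95% interval -0.25 to 0.03, limma adjusted p = 0.157), with both GO2 arrays below both ID8G arrays. Wwtr1 was lower by limma after normexp background correction (-0.21, adjusted p = 0.0415) and with an intensity trend (-0.11, adjusted p = 0.0492), and the spike-ins gave -0.32 (limma adjusted p = 0.0601). Neither interval reached a 2-fold difference in either direction.

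The TEAD genes, whose proteins bring YAP and TAZ to DNA, did not move by the same amount. Tead3 had levels of -0.11 and -0.25 in ID8G cells and 1.46 and 1.46 in GO2 cells. Both GO2 arrays were far above both ID8G arrays. Tead3 was 3.13-fold higher in GO2 cells (log2 difference 1.64, SE 0.07, 95% interval 1.46 to 1.83, limma adjusted p = 0.000548). It has 1 probe on the array, A_55_P2735485. The genes whose levels over the 4 arrays, centred on their mean, were nearest to those of Tead3 were Tgtp2, Csf1 and Bbs1, at Euclidean distances of 0.031, 0.031 and 0.063 log2 units.

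Tead2 had levels of -0.39 and -0.38 in ID8G cells and 0.84 and 0.77 in GO2 cells with its brighter probe, A_55_P2129271. The lines were well separated and the replicates close. Tead2 was 2.28-fold higher in GO2 cells (log2 difference 1.19, SE 0.06, 95% interval 1.03 to 1.34, limma adjusted p = 0.000721). With the spike-ins the difference was 0.98, just under 2-fold, and the call was also lost with limma's treat. The other Tead2 probe, A_51_P227739, did not settle the direction: its levels were -1.37 and -3.51 in ID8G cells and -1.57 and -1.73 in GO2 cells. The gap of 2.14 between its ID8G arrays was matched or exceeded by only 0.0987% of tested probes, whose median gap in ID8G cells was 0.0773. Its difference was 0.79 (SE 0.75, limma adjusted p = 0.452), and it was 1.86 without ID8G replicate 1 and -0.28 without ID8G replicate 2. The Tead2 call therefore rests on 1 of its 2 probes.

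Tead1, the TEAD gene with 3 tested probes, changed less. Its brightest probe had levels of 1.68 and 1.76 in ID8G cells and 2.10 and 2.09 in GO2 cells, a difference of 0.37 (SE 0.06, 95% interval 0.22 to 0.53, limma adjusted p = 0.014). With the spike-ins it was 0.17 (limma adjusted p = 0.274), with no filter on dim probes the limma adjusted p was 0.103, and it was 0.060, 0.0651 and 0.0638 without ID8G replicate 1, GO2 replicate 1 and GO2 replicate 2. The other Tead1 probes also had higher means in GO2 cells, by 0.25 and 0.07, but did not pass the test, and the smaller of these was -0.13 with the spike-ins. Tead4 had levels of -1.43 and -1.37 in ID8G cells and -1.39 and -1.33 in GO2 cells, and the lines overlapped. Its difference was 0.04 (95% interval -0.12 to 0.19, limma adjusted p = 0.639), with a turned sign under normexp (-0.01) and the spike-ins (-0.17). The second Tead4 probe, A_66_P115604, was well above background on only 1 array and was not tested. Whether probes of these related genes bind the RNA of one another was not tested.

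**Figure D3:**
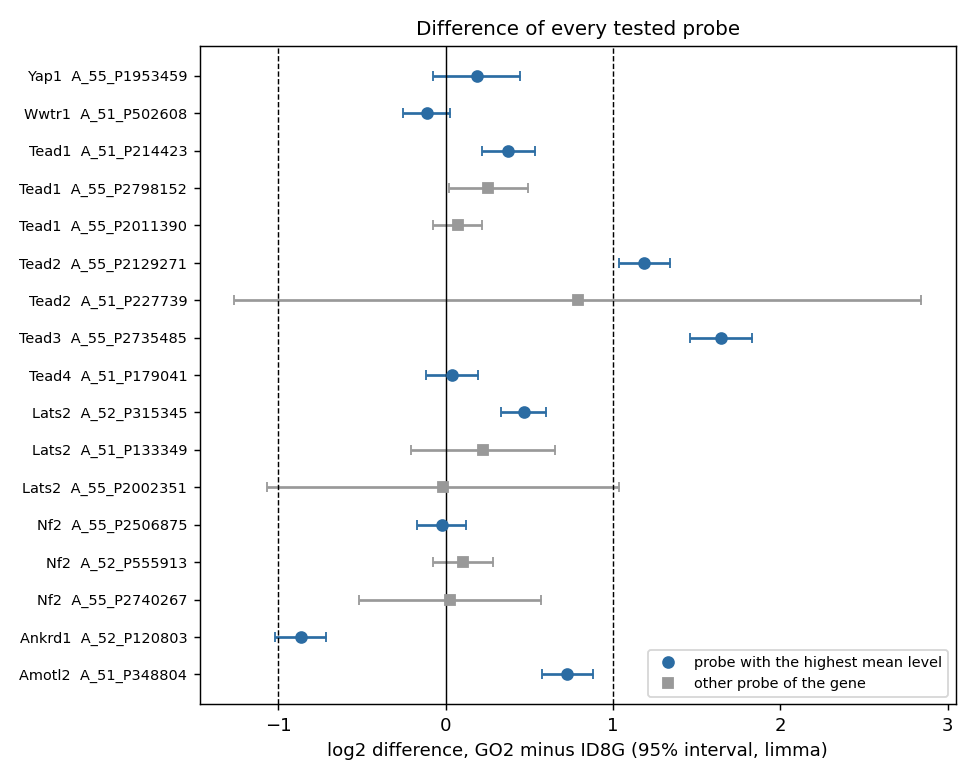
Log2 difference, GO2 minus ID8G, with the 95% interval from limma for the 17 tested probes of the 10 genes; circles mark the probe with the highest mean level, squares other probes of the gene, and dashed lines a 2-fold difference. Tead2 and Tead3 lie past the 2-fold line, and the second Tead2 probe has an interval from -1.26 to 2.84.

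Among the upstream genes, Amotl2 and Lats2 rose by less than 2-fold, and Nf2 showed no detectable difference. Amotl2 encodes an angiomotin, a junction protein that binds YAP. Its levels were 1.15 and 1.098 in ID8G cells and 1.88 and 1.83 in GO2 cells. The lines did not overlap, and Amotl2 was 1.65-fold higher in GO2 cells (log2 difference 0.73, SE 0.06, 95% interval 0.57 to 0.88, limma adjusted p = 0.0024). Lats2, a kinase that inactivates YAP and TAZ, had levels of 0.55 and 0.53 in ID8G cells and 1.002 and 1.01 in GO2 cells. It was 1.38-fold higher in GO2 cells (log2 difference 0.47, SE 0.05, limma adjusted p = 0.0056), but by 0.26 on the log2 scale with the spike-ins (limma adjusted p = 0.112). With no filter on dim probes the limma adjusted p was 0.0617. The dimmer Lats2 probes did not pass the test, and their differences were 0.22 (limma adjusted p = 0.323) and -0.02 (limma adjusted p = 0.977), the latter with GO2 arrays on both sides of the ID8G arrays. Nf2, the gene of merlin, had levels of 4.38 and 4.43 in ID8G cells and 4.36 and 4.40 in GO2 cells. Its difference was -0.03 (95% interval -0.17 to 0.12, limma adjusted p = 0.742), and 0.0032 after quantile normalization. The other Nf2 probes differed by 0.10 and 0.03 and did not pass the test, and both were below 0 with the spike-ins.

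Ankrd1, a target gene commonly used as a readout of YAP and TAZ, moved against the rest of the members that passed the test. Its levels were 3.42 and 3.46 in ID8G cells and 2.54 and 2.61 in GO2 cells. Both GO2 arrays were below both ID8G arrays, and Ankrd1 was 1.82-fold lower in GO2 cells (log2 difference -0.87, SE 0.06, 95% interval -1.02 to -0.71, limma adjusted p = 0.0016). With the spike-ins the difference was -1.07, which passed the 2-fold minimum.

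Further lists of the pathway's genes placed the members beside 70 others, of which 69 were on the array and 67 were tested. Of these, 7 were called higher and none lower by limma, and 5 were called higher when all 4 arrays had to read well above background. At an adjusted p below 0.05 alone, 22 were higher and 14 lower, and at an unadjusted p the counts were 25 and 15. The lists were chosen with earlier results of these data known, so the counts describe them and are not a test. Beside these counts, 5.98% of all tested gene symbols were called higher and 3.94% lower. At an adjusted p below 0.05 alone the shares of all tested gene symbols were 21.0% and 20.0%. At an unadjusted limma p below 0.05, 6379 of all 28368 tested probes were higher and 7283 lower. The lists held 19 other targets of YAP and TAZ, 20 upstream regulators, 16 core kinases and their adaptors, 11 subunits and partners of the STRIPAK phosphatase complex and 4 Vgll cofactors.

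**Figure D4:**
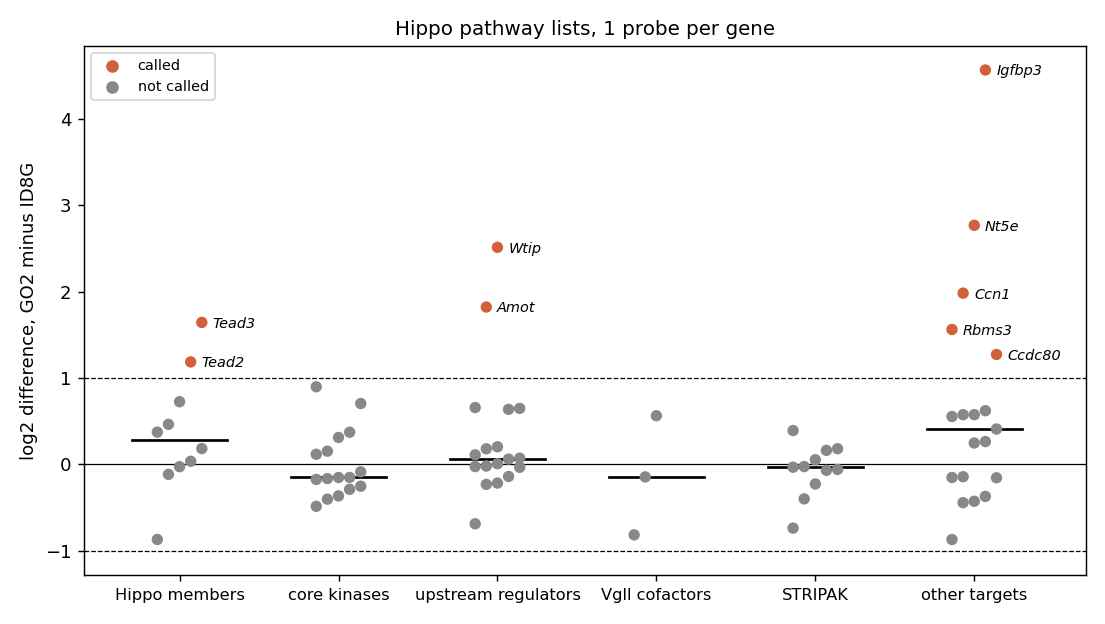
Log2 difference, GO2 minus ID8G, of 1 probe per tested gene in each Hippo list, with orange for called genes, grey for the rest, a bar at the list median and dashed lines at a 2-fold difference. The 9 called genes are all higher in GO2 cells; Nt5e and Rbms3 are drawn at their measured difference although neither was well above background in ID8G cells.

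The other target genes split in direction. Of 19 tested, 5 were called higher (Igfbp3, Nt5e, Ccn1, Rbms3 and Ccdc80) and none lower. The shares of all tested gene symbols were 5.98% and 3.94%. Nt5e and Rbms3 passed the filter only through GO2 cells and so could only be called higher; the other 3 were well above background on all 4 arrays. At an adjusted p below 0.05 alone 12 were higher and 4 lower, against 21.0% and 20.0% of all tested gene symbols. The median difference of the list was 0.41, also with Nt5e and Rbms3 at their bounds. Ccn1 (CYR61), a matricellular protein gene, had levels of 0.39 and 0.47 in ID8G cells and 2.44 and 2.39 in GO2 cells and was 3.95-fold higher (log2 difference 1.98, SE 0.06, limma adjusted p = 0.000317). Ccn2 (CTGF), its close relative and an equally common readout, had levels of 3.44 and 3.47 in ID8G cells and 2.56 and 2.62 in GO2 cells and was 1.83-fold lower (log2 difference -0.87, SE 0.05, limma adjusted p = 0.0015). The differences of Ccn2 and Ankrd1 were thus of the same size and sign, and that of Ccn1 had the opposite sign. Ccn2 was singled out after its values were seen.

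Igfbp3, which encodes a binding protein of insulin-like growth factors, was 23.7-fold higher in GO2 cells, with levels of -1.48 and -1.60 in ID8G cells and 3.04 and 3.01 in GO2 cells. Ccdc80, which encodes an extracellular matrix protein, was 2.42-fold higher. Nt5e, the gene of the ecto-enzyme CD73, was not well above background in ID8G cells and was at least 4.33-fold higher in GO2 cells. Rbms3, an RNA-binding protein gene, was likewise not well above background in ID8G cells and was at least 1.69-fold higher with the probe of highest level and at least 3.90-fold higher with another. The bound of the former lies under 2-fold, and its call was lost after normexp (0.60), with a floor on the signal (0.76), with no filter on dim probes (limma adjusted p = 0.0781), with limma's treat and without either GO2 array. Axl, a receptor tyrosine kinase gene, and Myof, the gene of the membrane protein myoferlin, rose by less, with differences of 0.58 (limma adjusted p = 0.0048) and 0.56 (limma adjusted p = 0.0075). With the spike-ins Myof was at 0.35 (limma adjusted p = 0.051) and Axl at 0.37 (limma adjusted p = 0.029), and with no filter on dim probes the limma adjusted p of Myof was 0.0621.

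Among the upstream regulators, 18 were tested and 2 were called higher, Wtip and Amot. Over all tested gene symbols 5.98% were called higher and 3.94% lower. Wtip encodes a LIM protein of the Ajuba family, which binds LATS kinases. Its levels were 0.40 and 0.37 in ID8G cells and 2.88 and 2.90 in GO2 cells, a 5.71-fold rise (log2 difference 2.51, SE 0.05, limma adjusted p = 0.000202), and its other probe gave a difference of 2.56. Amot, the founding angiomotin and a relative of Amotl2, had levels of -0.10 and -0.21 in ID8G cells and 1.72 and 1.61 in GO2 cells, a 3.54-fold rise (log2 difference 1.82, SE 0.07, limma adjusted p = 0.000537). This rests on its only tested probe, since its other probes were not well above background on any array. Amot and Amotl2 thus both rose, and the remaining angiomotin gene, Amotl1, differed by 0.01 (limma adjusted p = 0.961). At an adjusted p below 0.05 alone 5 upstream regulators were higher and 3 lower, against 21.0% and 20.0% of all tested gene symbols. The list median was 0.07. Scrib, a polarity protein gene, differed by -0.23 (limma adjusted p = 0.041), or -0.43 with the spike-ins, and did not pass after quantile normalization (limma adjusted p = 0.0646), with a replicate block (limma adjusted p = 0.0599), with no filter on dim probes or without any 1 array. Ctnna1, the gene of alpha-catenin, differed by 0.07 (limma adjusted p = 0.456), or -0.13 with the spike-ins.

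The core kinases and their adaptors, 16 genes, included no called gene by limma, and 4 were higher and 4 lower at an adjusted p below 0.05 alone, with a list median of -0.15. Over all tested gene symbols 21.0% were higher and 20.0% lower by that rule, so these counts are near the background. Map4k4, a kinase that acts alongside the MST kinases on LATS, differed by 0.90 (SE 0.07, limma adjusted p = 0.0022) with its brighter probe. The dimmer Map4k4 probe gave a smaller difference of 0.51 (SE 0.05, limma adjusted p = 0.0053). Lats1, the partner of Lats2, had a difference of -0.15 (SE 0.05, limma adjusted p = 0.087) with its brighter probe. The dimmer Lats1 probe gave -0.30 (SE 0.07, limma adjusted p = 0.0426) and so passed at an adjusted p alone. Stk3 (MST2) had a difference of -0.29 (SE 0.06, limma adjusted p = 0.031). The value of Stk38l, another of the lower genes, came from 1 GO2 array, since the spot of the other was marked as an outlier. Taok1, a kinase upstream of the MST kinases, differed by 0.12 (limma adjusted p = 0.218), or -0.09 with the spike-ins.

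The Vgll genes encode cofactors that bind TEAD factors in the place of YAP and TAZ, and 3 of 4 were tested, with none called. Vgll4, a TEAD repressor that competes with YAP, had levels of -0.21 and -0.31 in ID8G cells and -1.16 and -0.99 in GO2 cells, a fall of 1.76-fold (log2 difference -0.81, SE 0.09, limma adjusted p = 0.0055), and -1.02 with the spike-ins. Vgll3 differed by 0.56 (SE 0.11, limma adjusted p = 0.026), but by 0.36 with the spike-ins (limma adjusted p = 0.0741). Its limma adjusted p was 0.121 with no filter on dim probes, 0.0826 without ID8G replicate 2 and 0.080 without GO2 replicate 1. In the STRIPAK list, whose phosphatase acts on the MST kinases, 11 genes were tested and none was called. At an adjusted p below 0.05 alone 2 were lower, and the list median was -0.03. By that rule 21.0% of all tested gene symbols were higher and 20.0% lower. Mob4, an adaptor, and Ppp2ca, the catalytic subunit, differed by -0.02 and -0.06 (limma adjusted p = 0.743 and 0.457).

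Lineage markers moved between the lines as well. Ptprc (CD45) and Adgre1, 2 of 6 leukocyte markers, were not well above background on any array, while the brightest probes of Itgam, Csf1r, Cd3e and Cd68 were above background at like levels in both lines. The other Itgam probe was not well above background in ID8G cells and was so on only 1 GO2 array. The other Cd68 probe was well above background on 1 array of each line. The dimmer Cd3e probe was higher in GO2 cells by 0.30 on the log2 scale (limma adjusted p = 0.0489). The dimmer Csf1r probe differed by 0.20 (limma adjusted p = 0.103). The summed leukocyte signal, in multiples of the array's 75th percentile, ran from 22.7 to 25.5 in ID8G cells and from 22.9 to 23.2 in GO2 cells. Most of it came from 1 Itgam probe, with levels of 4.18 and 4.39 in ID8G cells and 4.13 and 4.17 in GO2 cells. Of 5 fibroblast markers, Pdgfra rose by 3.70 on the log2 scale and Pdgfrb at least 2.42-fold. Pdgfrb passed the filter only through GO2 cells and so could only be called higher. Dcn fell by 0.63 on the log2 scale, and Lum and Thy1 were not well above background. The summed fibroblast signal was lower in GO2 cells, from 43.9 to 44.2 against 64.8 to 67.5, since Dcn made up most of it. All 5 mesothelial and ovarian surface markers were above background, Krt19 fell 3.14-fold, Msln fell 1.77-fold and Upk3b rose 2.11-fold. Wt1 and Lrrn4 differed by -0.10 (limma adjusted p = 0.478) and -0.04 (limma adjusted p = 0.895). The summed signal was 142 to 146 in GO2 cells against 271 to 279, and Krt19 made up most of the drop. Epithelial markers Krt18 and Krt8 fell by 0.81 and 0.55, Cdh1 differed by -0.34 (limma adjusted p = 0.060), and Epcam and Krt7 were not well above background. The summed epithelial signal was 231 to 232 in GO2 cells against 377 to 391. Of 5 adipocyte markers, Adipoq and Plin1 were not well above background on any array, and Lep differed by -0.04. Fabp4 was at least 6.28-fold lower in GO2 cells with its brighter probe and at least 1.79-fold lower with the other. It passed the filter only through ID8G cells and so could only be called lower. Cidec was well above background on only 1 GO2 array and was not tested. Of 5 endothelial markers, Cdh5, Kdr, Tek and Vwf were not well above background on any array, and Pecam1 differed by 0.08 (limma adjusted p = 0.521). The part of such differences in cell state in the values of the Hippo genes was not tested.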

How the data were processed

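RNA of 2 cultured ID8G and 2 cultured GO2 samples was measured on Agilent SurePrint G3 Mouse arrays with 1 colour. The authors deposited scanner files from Feature Extraction 11.5.1.1, which hold a background-corrected spot intensity on a linear scale, and a table of log2 values normalized by the authors in GeneSpring GX, with settings not given in the sources used here. The log2 table was used as an alternative only. All 4 arrays lay on 1 slide.

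Spots marked as outliers were left out, spots of 1 probe were averaged, and log2 intensity was set relative to the 75th percentile of each array. Probes were named by RefSeq accession through a table of GRCm38.p6 (32994 of 56605). Probes that read well above background on both arrays in ID8G or in GO2 cells (28368) were tested with limma 3.58.1 in R 4.3.3, with Benjamini-Hochberg adjustment over all of them. A probe was called at an adjusted p below 0.05 and a 2-fold difference. Where neither array of a line read well above background, the fold is a bound: the mean of the brighter line against the mean, over the dim arrays, of the higher of the probe's own signal and the lowest signal among probes well above background. The number of arrays limits the precision. A further leukocyte marker is not reported here. The 10 genes and the other lists were chosen with earlier results of these data known. Within lists, the genes named were the called genes and the 2 with the highest level (1 in marker lists), and all members were named; Ccn2, Lats1, Stk3, Stk38l, Amotl1 and the other marker genes were added after their values were seen. Alternatives were normexp correction, quantile, median and spike-in scaling, other filters, limma's treat, an intensity trend, the t-test of the methods, a replicate block and leaving out each array.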

Additional observations from a re-analysis of the deposited data

How the results depend on the processing

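Of 610 named differences compared across alternatives, 563 kept both direction and side of the threshold, 18 lost the call, 13 gained it and 16 changed sign. Over all probes, 1277 were called higher and 947 lower. The counts were 818 and 517 after normexp background correction, 748 and 440 with limma's treat, 666 and 606 when all 4 arrays had to read well above background, 1107 and 1428 with spike-in scaling, 4835 and 5348 with no minimum difference, and 0 and 3 with the methods' t-test after Benjamini-Hochberg (3377 and 3599 at an unadjusted p below 0.05). Of the 10 Hippo genes, 2 were called higher and 0 lower. With treat this was 1 higher, with the spike-ins 1 higher and 1 lower, with no minimum difference 5 and 1, and with the methods' t-test 0 (4 higher and 1 lower at an unadjusted p). Of the other pathway genes, 7 were higher and 0 lower, and this was 22 and 14 with no minimum difference, 0 higher with the t-test (15 and 11 unadjusted) and 2 lower with the spike-ins. It was 5 higher with all 4 arrays well above background and with treat, and 6 with normexp, with the floor, with no filter on dim probes and without either GO2 array.

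Normexp gave 0.0061 for Lats2 (A_55_P2002351) and -0.011 for Tead4. The spike-ins gave -0.17 for Tead4, -0.020 for Yap1, -0.13 for Tead1 (A_55_P2011390), -0.10 and -0.18 for Nf2 (A_52_P555913 and A_55_P2740267), -0.086 for Taok1 and -0.13 for Ctnna1. Quantile normalization gave 0.0032 for Nf2 (A_55_P2506875), and median centring -0.0040 for Nf2 (A_55_P2740267). Leaving out 1 array, Lats2 (A_55_P2002351) ran from -0.56 to 0.53, Nf2 (A_55_P2740267) from -0.18 to 0.23 and Tead2 (A_51_P227739) from -0.28 to 1.86. The cause was not tested, other than that the spike-ins lower every difference alike.

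The replicate block, for which the shared numbers give no known pairing (correlation of deviations 0.0273), gave 1251 higher and 936 lower, with 2 members and 7 other pathway genes higher. The slide could not be used as a block, since there was only 1. Dim probes have the widest intervals.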
